A study of Homo sapiens with 12 samples.

Results

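The G1 cyclins and the inhibitors of their kinases form a small group of genes that sets whether a cell leaves G1 and begins to copy its DNA. The 10 genes described here were chosen by symbol: the D-type cyclins CCND1, CCND2 and CCND3, the E-type cyclins CCNE1 and CCNE2, the CIP/KIP inhibitors CDKN1B and CDKN1C, and the INK4 inhibitors CDKN2B, CDKN2C and CDKN2D. They were chosen with earlier results of these data known. Of these 10 genes, 9 had at least 1 probe (15 probes in all) among the 18852 genes named on the array, and 6 were measured well enough to be tested among 10469 genes. CDKN2C had no probe listed in the annotation used, which belongs to another version of the HumanHT-12 array than the one the study's methods name and was matched by probe ID, and CCND2, CCNE2 and CDKN1C did not pass the filter on dim probes.

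The samples were AGS cells, an established line from a human gastric adenocarcinoma, exposed to mycophenolic acid (MPA), which inhibits inosine monophosphate dehydrogenase, the enzyme that limits guanine nucleotide synthesis. Total RNA was hybridised to Illumina HumanHT-12 bead arrays from cells given MPA at 2 µg/ml for 12, 24, 48 or 72 h (2 arrays each) and from untreated cells at 0 h (4 arrays), 12 arrays in all. AGS was the 1 cell line profiled, and no untreated cells of 12 to 72 h were among the arrays, so hours with MPA and hours in culture cannot be told apart. The labels do not say whether replicates came from separate cultures, so p-values measure the spread between arrays, which may be technical. In RNA from a whole culture, fewer cells that express a gene and less RNA per cell cannot be told apart.

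D-type cyclins bind CDK4 and CDK6, and E-type cyclins bind CDK2; the active kinases phosphorylate the retinoblastoma protein, which releases E2F factors to switch on genes of S phase. INK4 proteins bind CDK4 and CDK6 and keep D-type cyclins away, while CIP/KIP proteins bind complexes of cyclin and CDK, chiefly those of CDK2. Many of these proteins are also set by their breakdown through ubiquitin ligases, which an RNA measurement does not show.

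Between 14077 and 15764 probes per array were detected at p under 0.01. The mean bead intensity before normalization lay at 568 to 589 at 12 h, 498 to 551 at 24 h, 422 to 484 at 48 h and 420 to 450 at 72 h, against 479 to 681 at 0 h. Quantile normalization removes such differences between arrays, and its part in the results was checked by scaling each array to its median instead. With this median scaling the median of all tested genes lay at -0.31 at 48 h and -0.32 at 72 h on the log2 scale. On every array the median bead intensity before normalization was below the dimmest detected signal, so that median belongs to probes that were not detected. Median scaling thus need not even out the brightness of detected probes, and a scaling by detected probes alone was not run. Of the epithelial markers, EPCAM, KRT8, KRT19 and CLDN7 were detected on all 12 arrays, KRT7 on 7 and CLDN4 on 5. Of the leukocyte markers, CD68 was detected on 12 arrays and CD14 on 5, while PTPRC and CD3E did not pass the filter; the fibroblast marker COL1A1 was detected on 7 arrays and the endothelial marker PECAM1 on 3. Some markers moved with the time course. COL1A1 was called lower at every time, with log2 fold changes of -0.99, -0.96, -1.22 and -1.37 at 12, 24, 48 and 72 h, and since no array of 48 h or 72 h detected it, it was at least 2.06-fold and 2.02-fold lower there than at 0 h. CD68 was called higher at every time, by 0.35, 0.62, 0.73 and 0.53, and with median scaling at none of them. CD14 was called lower at 12 h and 24 h, where no array detected it, and CLDN7 lower at 72 h (log2 fold change -0.53), while EPCAM, KRT8 and KRT19 were called at no time (with median scaling KRT8 was lower at 48 h and 72 h and KRT19 at 72 h). The part of these markers in the results was not tested.

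CCND1 and CDKN2D gained most over the later times, CCNE1 was highest at 12 h, and CDKN2B was moderately higher at every time. With median scaling CDKN2B was called at no time. CCND3 was slightly higher when all times were averaged, and CDKN1B was slightly lower at 12 h. Values below are log2 signals, on which a difference of 1 is a doubling, and levels of different genes cannot be set against each other because each probe binds with its own strength. Changes are log2 fold changes of MPA over 0 h with their standard error (SE), and adjusted p-values come from limma with Benjamini-Hochberg adjustment over all 10469 genes.

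**Figure D1:**
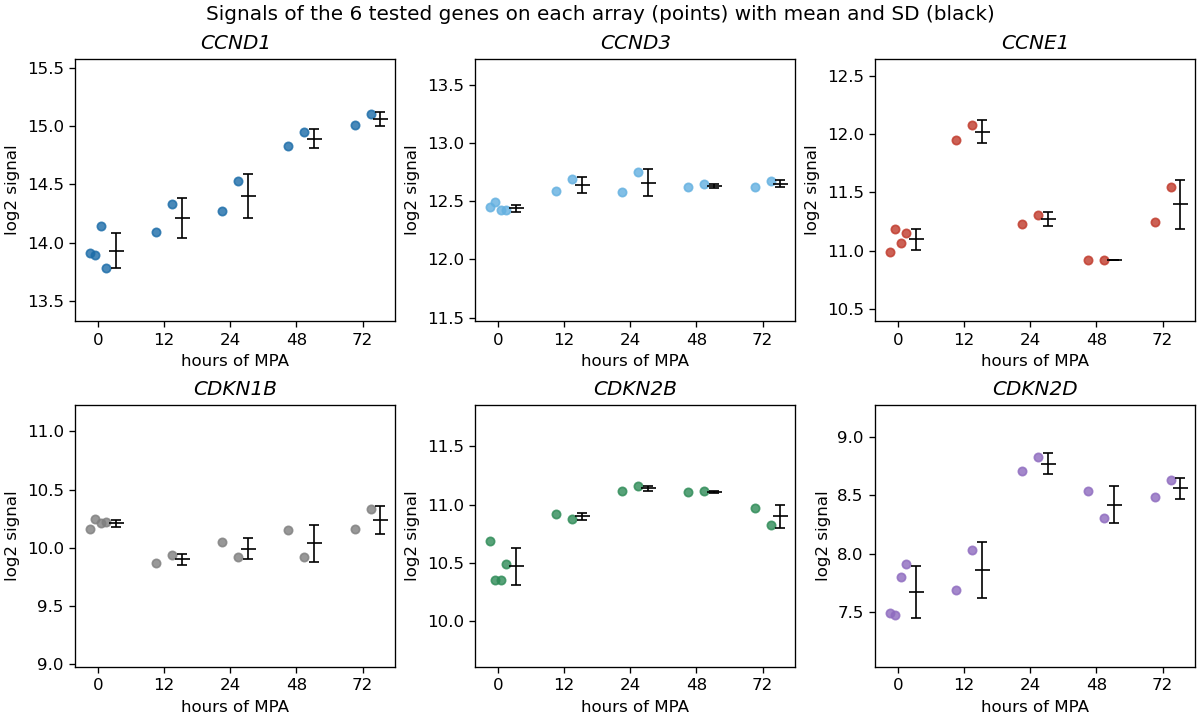
Log2 signal of CCND1, CCND3, CCNE1, CDKN1B, CDKN2B and CDKN2D (vertical axes, each spanning the same range) on each array (points) against hours of MPA (horizontal axes), with the mean and SD of each time in black (4 arrays at 0 h, 2 at each other time). CCND1 stood at 15.01 and 15.10 (72 h), and CCNE1 at 11.95 and 12.08 at 12 h.

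CCND1 encodes cyclin D1, the D-type cyclin most often linked to growth factor signals in epithelial cells, and lies on chromosome 11 (GRCh38.p14, chr11:69641156-69654474). Its signal was 14.09 and 14.33 (12 h), 14.27 and 14.53 (24 h), 14.83 and 14.95 (48 h) and 15.01 and 15.10 (72 h), against 13.91, 13.89, 14.14 and 13.78 at 0 h. All arrays from 24 h on lay above all arrays at 0 h, whereas 1 of 2 arrays at 12 h did. The log2 fold change was 0.28 at 12 h (SE 0.13, adjusted p = 0.13, limma), 0.47 at 24 h (SE 0.13, adjusted p = 0.013), 0.96 at 48 h (SE 0.13, adjusted p = 1e-04) and 1.12 at 72 h (SE 0.13, adjusted p = 3.3e-05), so that CCND1 rose 2.18-fold by 72 h. The means followed the order of the times, with 13.93, 14.21, 14.4, 14.89 and 15.06 for 0, 12, 24, 48 and 72 h, yet no step between neighbouring times passed the test (adjusted p = 0.13, 0.50, 0.057 and 0.66 in turn), while 72 h was higher than 12 h by 0.85 (SE 0.15, adjusted p = 0.0014). Bead intensities before normalization were 28267.9 and 29707 at 72 h, against 13085.2 to 20984.6 at 0 h, without overlap.

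The rise of CCND1 at 24 h was the least secure. It was 0.23 (adjusted p = 0.40, limma) with median scaling and 0.33 (adjusted p = 0.17) without the second 24 h array. With median scaling the difference between 72 h and 12 h also missed the threshold (0.56, adjusted p = 0.068), and the change at 48 h was 0.57 (adjusted p = 0.025).

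CCND3, the D-type cyclin prominent in lymphoid cells and in differentiating tissues, lies on chromosome 6 (chr6:41934933-42050035). Its signal was 12.59 and 12.69 (12 h), 12.58 and 12.75 (24 h), 12.62 and 12.65 (48 h) and 12.62 and 12.67 (72 h), against 12.45, 12.49, 12.42 and 12.42 at 0 h. Each of the 8 MPA arrays lay above each of the 4 arrays at 0 h, a pattern that 10.8% of all tested genes also had. The log2 fold changes at the 4 times lay between 0.19 and 0.22 (SE 0.10 each) and none passed the test (adjusted p = 0.10 to 0.17, limma). The mean of the 4 times was 0.20 above 0 h (SE 0.07, adjusted p = 0.034), a call that was lost without any one array of 0 h (adjusted p = 0.058 to 0.079), without the second array of 12, 24, 48 or 72 h (adjusted p = 0.055 to 0.076), without the filter on detection (adjusted p = 0.052), and that turned to -0.06 with median scaling. Between 72 h and 12 h the difference was 0.01, with a 95% interval from -0.25 to 0.26.

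CCND2, which encodes the D-type cyclin best known from the gonads and the nervous and lymphoid systems, was represented by a pair of probes (GRCh38.p14, chromosome 12). Neither was detected on any of the 12 arrays. Bead intensities of the first were 88.1 to 115 over all arrays and those of the second 73.5 to 97.8, where the dimmest detected probe of each array had 107.5 to 135.2. No fold change is given for CCND2.

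CCNE1 encodes cyclin E1, the partner of CDK2 at the entry into S phase and itself a target of E2F factors, and lies on chromosome 19 (chr19:29811991-29824312). Its signal was 11.95 and 12.08 (12 h), 11.23 and 11.31 (24 h), 10.92 and 10.92 (48 h) and 11.25 and 11.55 (72 h), against 10.99, 11.19, 11.07 and 11.15 at 0 h. The 12 h arrays stood above all others, the 48 h arrays below all others, and the 24 h and 72 h arrays overlapped each other just above 0 h. CCNE1 was 1.88-fold higher at 12 h than at 0 h (log2 fold change 0.91, SE 0.12, adjusted p = 9.5e-05, limma) and lower at 24 h than at 12 h by 0.75 (log2 fold change -0.75, SE 0.14, adjusted p = 0.0059). At 24, 48 and 72 h the changes against 0 h were 0.16, -0.18 and 0.30 (SE 0.12 each), with adjusted p = 0.28, 0.23 and 0.059.

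In order of level, CCNE1 was lowest at 48 h, followed by 0 h, 24 h, 72 h and 12 h. Neither 48 h nor 24 h was told apart from 0 h, 72 h and 24 h overlapped, and 72 h lay below 12 h (log2 fold change -0.62, SE 0.14, adjusted p = 0.0046, limma). The 12 h difference passed the test under every alternative run, and bead intensities before normalization, 4444.3 and 5148.9 at 12 h against 2077.5 to 3037.1 at 0 h, did not overlap either. With median scaling the 24 h and 72 h values turned to -0.01 and -0.12, neither called, and the 48 h value was -0.58 (adjusted p = 0.017). The fall between 12 h and 24 h missed the threshold without the second 12 h array (-0.68, adjusted p = 0.060) and without the first 24 h array (-0.71, adjusted p = 0.056), and when the mean of both probes stood for the gene (-0.60, adjusted p = 0.069). The mean of the 4 times was 0.30 above 0 h (SE 0.08, adjusted p = 0.0095), against 0.04 (adjusted p = 0.81) with median scaling and 0.27 (adjusted p = 0.055) with the mean of both probes.

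A second CCNE1 probe was close to background: it was detected on 2 of 2 arrays at 12 h and 1 of 2 at 24 h, and on no array at 48, 72 or 0 h. Its bead intensities were 136.7 and 132.9 at 12 h, against 107.2, 110.7, 107.7 and 111.4 at 0 h. The signal at 12 h was at least 1.1-fold higher than at 0 h, where a bound is all that a probe below detection allows. For the bound, the 12 h mean was set against the higher of each 0 h array's dimmest detected signal and the probe's own. The adjusted p = 0.04 over all probes (limma) belongs to the fitted difference of 0.72, which uses 0 h values below detection. This probe passed the filter only through arrays of 12 h and 24 h, so its 12 h maximum adds no independent support to the first probe. CCNE2, which encodes the second E-type cyclin, was detected on no array, with intensities of 80.8 to 106.

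**Figure D2:**
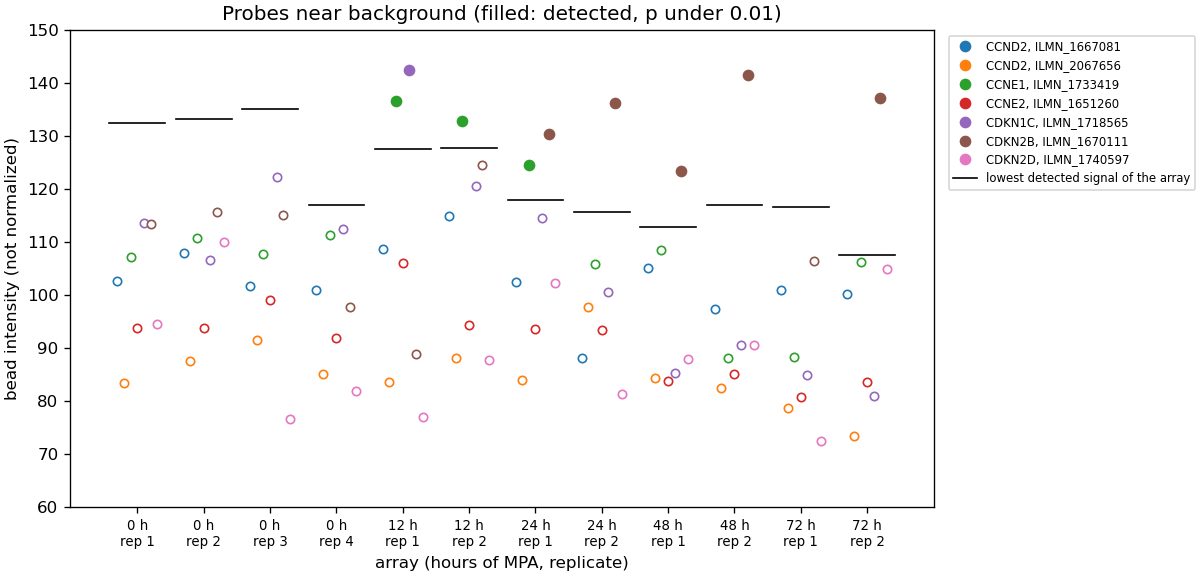
Bead intensity before normalization (vertical axis) of the 7 probes not detected on all arrays, on each of the 12 arrays (horizontal axis), with filled points where detected at p under 0.01 and a black line at the dimmest detected signal of each array. CCNE1 is filled on both 12 h arrays, and CDKN1C on 1 array, at 142.4.

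CDKN2B encodes p15, an INK4 inhibitor well known as a target of TGF-beta signalling in epithelial cells, and lies on chromosome 9 (chr9:22002903-22009313). Its brightest probe gave 10.92 and 10.88 (12 h), 11.12 and 11.16 (24 h), 11.11 and 11.12 (48 h) and 10.97 and 10.83 (72 h), against 10.69, 10.35, 10.35 and 10.49 at 0 h. All 8 MPA arrays lay above all 4 arrays at 0 h, as they did for 10.8% of all tested genes. CDKN2B was 1.59-fold higher at 24 h (log2 fold change 0.67, SE 0.12, adjusted p = 0.00073, limma), and 0.43, 0.64 and 0.43 higher at 12, 48 and 72 h (SE 0.12 each), with adjusted p = 0.015, 0.00093 and 0.012. In order of level 0 h came first, then 12 h and 72 h, which differed by 0.01 with a 95% interval from -0.29 to 0.31, then 48 h and 24 h, which differed by 0.03 with the interval of 48 h against 24 h from -0.33 to 0.27.

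The size of the CDKN2B change depended on how arrays were scaled. With median scaling it was 0.39, 0.52, 0.26 and 0.04 at 12, 24, 48 and 72 h and no time passed the test (adjusted p = 0.19, 0.058, 0.32 and 0.90, limma), while the values above the median of all genes in that scaling were 0.39, 0.65, 0.57 and 0.35. Bead intensities before normalization overlapped, with 2458.8 and 2223 at 24 h against 1321.2 to 2348.5 at 0 h. The 12 h call was also lost without the first (adjusted p = 0.083) or the second (adjusted p = 0.068) 12 h array and with the mean of the probes (0.29, adjusted p = 0.083), and the 72 h call without the first 72 h array (0.36, adjusted p = 0.10).

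CDKN2B had a second bright probe, designed on the other transcript variant (NM_004936 rather than NM_078487). It gave 10.78 and 10.43 (12 h), 10.85 and 10.85 (24 h), 10.72 and 10.63 (48 h) and 10.37 and 10.40 (72 h), against 10.30, 9.97, 9.77 and 10.41 at 0 h. Its changes were 0.49, 0.74, 0.57 and 0.27 at 12, 24, 48 and 72 h, and the first 3 passed the test over all probes (adjusted p = 0.047, 0.0051, 0.020 and 0.23, limma). Another, dim probe was detected on 2 of 2 arrays at 24 h and at 48 h, on 1 of 2 at 72 h, and on none at 12 h or 0 h. It was at least 1.16-fold higher at 24 h, 1.31-fold at 48 h and 1.17-fold at 72 h than at 0 h. The fitted differences of 0.80, 0.98 and 0.81, which use 0 h values below detection, had adjusted p = 0.038, 0.014 and 0.037 (limma). This dim probe passed the filter only through arrays of 24, 48 and 72 h, so it adds no independent support for a rise there. The bright probes had their highest mean at 24 h.

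CDKN2D encodes p19, an INK4 inhibitor, and lies on chromosome 19 (chr19:10566460-10568979). Its signal was 7.69 and 8.03 (12 h), 8.71 and 8.83 (24 h), 8.54 and 8.31 (48 h) and 8.49 and 8.63 (72 h), against 7.49, 7.47, 7.80 and 7.91 at 0 h. All 6 arrays from 24 h on stood above all arrays of 12 h and 0 h, which overlapped each other. CDKN2D rose 2.14-fold at 24 h (log2 fold change 1.1, SE 0.15, adjusted p = 0.00011, limma) and was 0.75 higher at 48 h (adjusted p = 0.0017) and 0.89 higher at 72 h (adjusted p = 0.00059), against 0.19 at 12 h (adjusted p = 0.37). In order of level 0 h and 12 h came lowest, and 48 h, 72 h and 24 h followed, with neither 48 h against 24 h (adjusted p = 0.22) nor 72 h against 48 h (adjusted p = 0.78) called.

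The step of CDKN2D between 12 h and 24 h was 0.91 (SE 0.18, adjusted p = 0.0089, limma), and 72 h was higher than 12 h by 0.70 (SE 0.18, adjusted p = 0.0098). Both steps rested on few arrays: without the first 12 h array they were 0.74 (adjusted p = 0.071) and 0.53 (adjusted p = 0.079), without the second 24 h array the first was 0.85 (adjusted p = 0.079), and without the second 72 h array the other was 0.63 (adjusted p = 0.063). With median scaling they were 0.77 (adjusted p = 0.058) and 0.38 (adjusted p = 0.20). The calls against 0 h at 24, 48 and 72 h were made under every alternative run. Bead intensities before normalization were 520.9 and 495.6 at 24 h, against 276.6 to 320.8 at 0 h. A second CDKN2D probe, on the transcript variant NM_001800, was detected on no array.

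The promoter windows of CCNE1, CDKN2B and CDKN2D are printed because these genes had 3 different time courses with quantile normalization. These were a 12 h peak, a moderate rise at all times (called at no time with median scaling), and a rise from 24 h on. Each runs 5′ to 3′ on the strand of its gene from 250 bases before to 50 bases after the start (RefSeq, GRCh38.p14): chr19:29811741-29812040 on the plus strand for CCNE1, chr9:22009256-22009555 on the minus strand for CDKN2B and chr19:10568930-10569229 on the minus strand for CDKN2D. Capitals mark the GC box GGGCGG or its reverse complement CCGCCC, and the CCAAT box.
CCNE1: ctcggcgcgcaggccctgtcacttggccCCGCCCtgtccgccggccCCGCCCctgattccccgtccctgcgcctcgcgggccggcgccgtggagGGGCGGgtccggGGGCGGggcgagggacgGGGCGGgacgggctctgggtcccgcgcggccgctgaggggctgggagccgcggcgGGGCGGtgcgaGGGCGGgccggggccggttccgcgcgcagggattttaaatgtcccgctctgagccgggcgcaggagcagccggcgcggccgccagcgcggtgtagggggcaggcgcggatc
CDKN2B: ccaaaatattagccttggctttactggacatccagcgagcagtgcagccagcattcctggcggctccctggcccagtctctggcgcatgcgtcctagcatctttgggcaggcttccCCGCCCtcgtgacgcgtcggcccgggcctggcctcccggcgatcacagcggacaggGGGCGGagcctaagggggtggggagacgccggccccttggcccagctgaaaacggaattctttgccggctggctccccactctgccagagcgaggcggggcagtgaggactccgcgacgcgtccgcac
CDKN2D: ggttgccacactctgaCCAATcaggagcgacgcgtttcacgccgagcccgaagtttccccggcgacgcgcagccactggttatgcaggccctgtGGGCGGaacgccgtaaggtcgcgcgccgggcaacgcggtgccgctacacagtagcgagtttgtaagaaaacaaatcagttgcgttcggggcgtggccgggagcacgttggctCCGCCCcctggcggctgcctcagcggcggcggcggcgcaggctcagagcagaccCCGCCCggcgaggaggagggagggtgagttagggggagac

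RefSeq windows were given for 6 of the 10 genes, 10 windows in all. GGGCGG, searched on both strands, matched 7 times in the CCNE1 window, 2 times in that of CDKN2B and 3 times in that of CDKN2D, and at least once in 45% of all 35116 windows of this length. CCAAT on both strands matched once in the CDKN2D window and in 34.6% of all windows. None of the 10 windows held any of the E2F words TTTCCCGC, TTTCGCGC, TTTGGCGC and TTTGCCGC (3.31% of all windows) or TTTGAA, the core of the cell cycle genes homology region (15.2%). A missing match says only that these letters are not in these windows.

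CDKN1B encodes p27, the CIP/KIP inhibitor that holds CDK2 in resting cells, and lies on chromosome 12 (chr12:12717368-12722369). Its brightest probe gave 9.87 and 9.94 (12 h), 10.05 and 9.92 (24 h), 10.15 and 9.92 (48 h) and 10.16 and 10.33 (72 h), against 10.16, 10.25, 10.21 and 10.22 at 0 h. The arrays of 12, 24 and 48 h lay below those of 0 h, and the 72 h arrays lay on both sides. CDKN1B fell by 0.31 at 12 h (log2 fold change -0.31, SE 0.11, adjusted p = 0.048, limma), and changes at 24, 48 and 72 h were -0.23, -0.17 and 0.03 (adjusted p = 0.12, 0.23 and 0.84).

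The 12 h call of CDKN1B was marginal. It missed the threshold without either 12 h array (adjusted p = 0.20 and 0.12, limma), without any one array of 0 h (adjusted p = 0.059 to 0.094), and without either 24 h (adjusted p = 0.061) or either 72 h (adjusted p = 0.051) array. It was lost too with median scaling (adjusted p = 0.26), without the filter, with array weights, with only the groups compared and with adjustment over all probes. With median scaling the 72 h value was -0.33, not called, and the 48 h value -0.53 (adjusted p = 0.030).

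A second bright CDKN1B probe scattered more. It gave 9.59 and 8.70 (12 h), against 10.15, 9.94, 9.77 and 9.29 at 0 h, a change of -0.64 (SE 0.27, adjusted p = 0.089, limma) that overlapped 0 h, and between 0.04 and 0.09 at the other times. CDKN1C, an imprinted gene for the CIP/KIP inhibitor p57, was detected on 1 of 12 arrays, the first 12 h array, at an intensity of 142.4. Its other intensities were 81.1 to 122.2, with 106.6 to 122.2 at 0 h and 81.1 to 90.7 at 48 h and 72 h, all below detection. The log2 signals at 48 h and 72 h were 4.58 to 4.72, against 4.86 to 5.49 at 0 h, and no fold change is given.

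**Figure D3:**
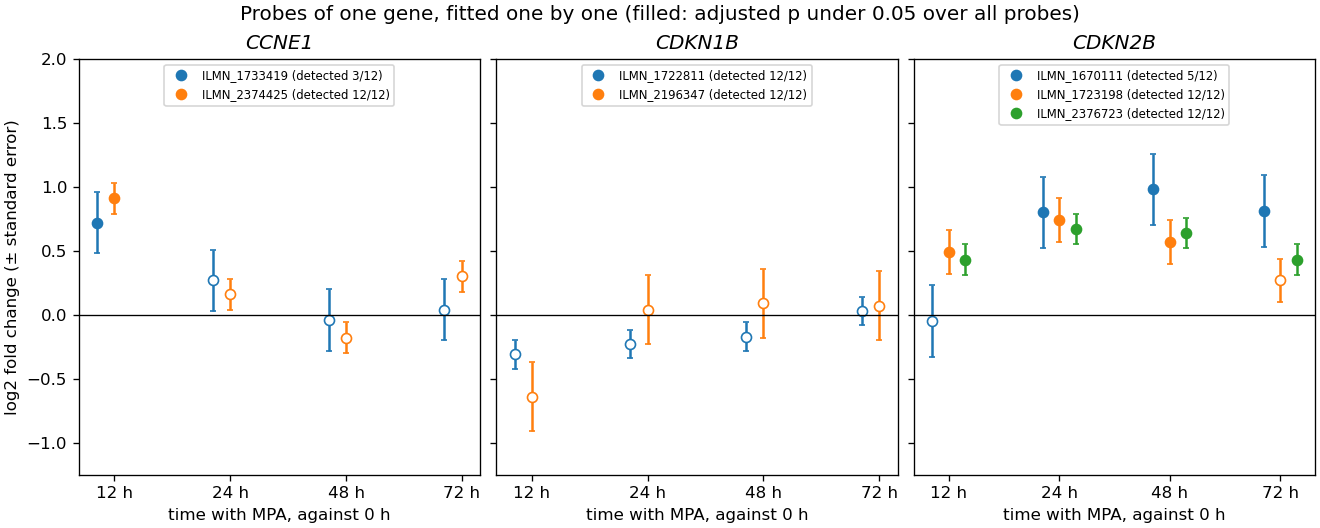
Log2 fold change against 0 h (vertical axis, bars are standard errors) at 12, 24, 48 and 72 h (horizontal axis) for each kept probe of CCNE1, CDKN1B and CDKN2B, fitted probe by probe, with filled points where the adjusted p over all probes was under 0.05. At 12 h the CCNE1 probes were at 0.91 and 0.72, and the CDKN1B probes at -0.31 and -0.64 with neither filled. The dim CCNE1 and CDKN2B probes are drawn at their fitted values although 0 h lay below detection.

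Calls of the 6 tested genes are set beside the share of all tested genes called, with no test between them. At 12 h, 3 of 6 were called, CCNE1 and CDKN2B higher and CDKN1B lower, where 34.3% of all tested genes were called, 16.4% higher and 17.9% lower. At 24 h, CCND1, CDKN2B and CDKN2D were called higher, 3 of 6, where 41.6% of all genes were called and 20.4% were higher. The same 3 genes were called higher at 48 h, where 43.5% of all genes were called and 20.7% were higher, and at 72 h, where 42.3% were called and 21% were higher. On the mean of the 4 times 5 of 6 were called, all higher, where 51.8% of all genes were called and 24.5% were higher. Of these, CCNE1 was called at 12 h alone and CCND3 at no single time. With median scaling 2 of the 6 were higher and 1 lower on that mean, where 13.4% and 34.8% of all genes were.

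Counted by arrays without overlap, 3 of the 6 genes had both arrays above all of 0 h at 12 h (24.1% of all genes), 5 at 24 h (27.5%), 4 at 48 h (26.8%) and 5 at 72 h (27.6%). Both arrays lay below all of 0 h for CDKN1B at 12 h (25.5% of all genes) and 24 h (30.3%), and for CDKN1B and CCNE1 at 48 h (29.7%). CCND3 and CDKN2B had all 8 MPA arrays above 0 h, where 10.8% of all genes did.

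The median log2 fold change of the 6 genes was 0.24, 0.34, 0.42 and 0.36 at 12, 24, 48 and 72 h, beside -0.01, -0.03, -0.04 and -0.02 over all tested genes. Without regard to sign the medians were 0.29, 0.35, 0.42 and 0.36, beside 0.28, 0.33, 0.34 and 0.33. With a further bound of 2-fold, CDKN2D at 24 h and CCND1 at 72 h were called, where 5.69% of all genes were higher by this rule at 24 h and 4.72% at 72 h.

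Between times with MPA, fewer genes differed overall. Between 24 h and 12 h, 2 of 6 were called, CDKN2D higher and CCNE1 lower, where 6.91% of all genes were called, 4.59% higher and 2.31% lower. Between 72 h and 12 h, CCND1 and CDKN2D were higher and CCNE1 was lower, 3 of 6, where 33.1% of all genes were called, 17.2% higher and 15.9% lower. Between 48 h and 24 h none of the 6 passed the limma test, where 11.1% of all genes did, although CCND1 (0.49, adjusted p = 0.057) and CCNE1 (-0.35, adjusted p = 0.12) had an unadjusted p under 0.05, and CCND1 was called at this step under 7 of the alternatives. Between 72 h and 48 h none passed either, where 2.03% of all genes did, with CCNE1 alone at an unadjusted p under 0.05 (0.48, adjusted p = 0.11), and CCNE1 was called at this step under 2 of the alternatives.

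**Figure D4:**
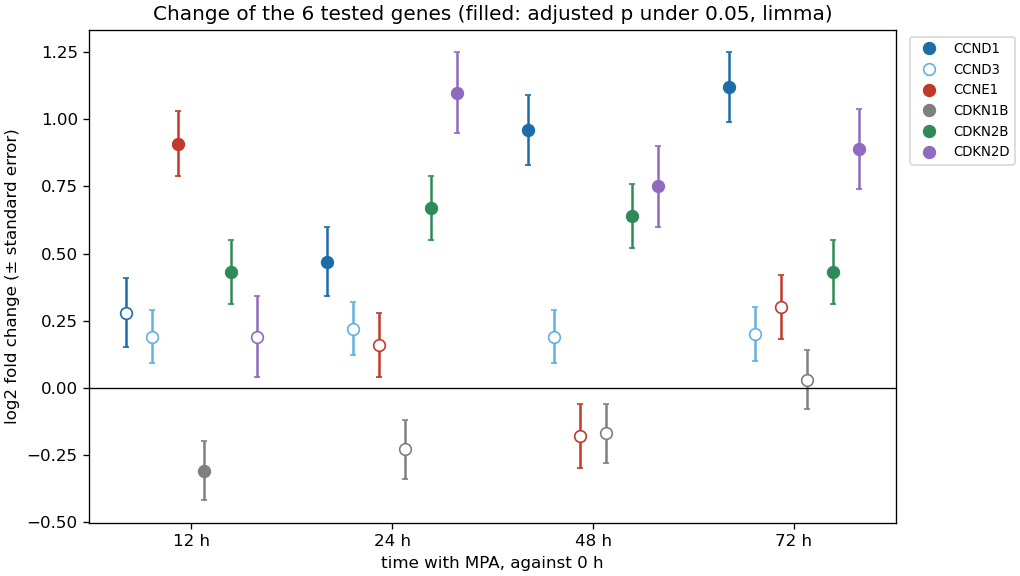
Log2 fold change against 0 h (vertical axis, bars are standard errors) of the 6 tested genes at 12, 24, 48 and 72 h (horizontal axis), with filled points where the limma adjusted p was under 0.05. CCNE1 is filled at 12 h only, at 0.91, CCND1 and CDKN2D are filled from 24 h on, and CDKN2B is filled at all 4 times.

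Across the 12 arrays, which share the time course, the signals of CCND3 and CDKN2B had a Pearson r of 0.81, those of CDKN2B and CDKN2D 0.76 and those of CCND1 and CDKN2D 0.74. CCNE1 had an r of -0.06 with CCND1 and -0.07 with CDKN2D, and CDKN1B had -0.61 with CDKN2B. Among all tested genes, the signals most like that of CCND1 were those of IL10 (r = 0.984), WNK4 (r = 0.981, detected on 6 of 12 arrays) and TCAF2 (r = 0.974). Those most like CDKN2D were NUP98 (r = 0.969), RGS22 (r = 0.953, detected on 6 of 12 arrays) and JAG2 (r = 0.947), and those most like CCNE1 were DHRS11 (r = 0.962), PSG7 (r = 0.907) and DMTF1 (r = 0.896). These values describe 12 arrays of 5 times.

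Of 84 other genes of the G1 pathway, in 7 lists, 76 were tested. These lists, too, were chosen with earlier results of these data known. On the mean of the 4 times 20 were higher and 24 lower, which is 57.9% of those tested beside 51.8% of all genes. Named genes come from the up to 4 of each list with the largest change among those called on that mean, and where 4 log2 fold changes are listed they are those of 12, 24, 48 and 72 h in turn. On the mean of the 4 times 24.5% of all tested genes were higher and 27.3% lower.

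Among kinases of G1 and S phase and their partners, 2 of 10 tested genes fell on the mean of the 4 times, where 27.3% of all genes did. CDK4, the partner of D-type cyclins, had log2 fold changes of -0.14, -0.69, -0.47 and -0.38, called from 24 h on. CCNA2, the S phase cyclin that follows cyclin E, changed by -0.40, -0.69, -1.11 and -0.94, all called (the 12 h call was lost with median scaling, at -0.43). With median scaling 7 of the 10 fell, where 34.8% of all genes did.

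Of the pocket proteins and the E2F and DP factors, 3 of 12 rose and 4 fell on the mean, where 24.5% of all genes rose and 27.3% fell. RB1, the retinoblastoma gene, had log2 fold changes of 0.18, 0.60, 0.82 and 0.93 (called from 24 h on; with median scaling the 24 h and 48 h calls were lost, at 0.48 and 0.49). E2F7, a repressor among the E2F factors, rose at every time, by 1.17, 1.65, 1.21 and 1.03, and E2F5 fell at every time (log2 fold changes of -1.11, -1.55, -1.02 and -0.71). E2F1 did not pass the filter on dim probes.

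In a mixed list of other CDK inhibitors and proteins that bind or act on CDKs, 2 of 6 rose and 2 fell on the mean, beside the same shares of all genes. These counts are not of inhibitors alone, since the list also holds CKS1B, CKS2 and SERTAD1. CDKN1A, the p21 gene of the CIP/KIP family, rose by 0.97, 1.03, 0.90 and 0.93, called at every time (adjusted p = 0.00044 at 12 h, limma), and no step between neighbouring times was called (adjusted p = 0.68 to 0.97). SERTAD1, which binds CDK4, rose by 2.00, 1.88, 1.49 and 1.26. CDKN3, a phosphatase that acts on CDK2, had log2 fold changes of -0.16, -0.20, -0.87 and -0.67, called at 48 h and 72 h (adjusted p = 1e-04 and 0.00079).

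In the list of ubiquitin ligase genes that act on cyclins or inhibitors, 3 of 9 rose and 4 fell on the mean. Over all genes 24.5% rose and 27.3% fell. This list also holds the chaperone CRYAB, which is among the 3 that rose. SKP1, a subunit of SCF ligases, rose at every time, by 0.85, 0.86, 1.11 and 0.89 (0.46, adjusted p = 0.059, at 72 h with median scaling), and CUL1, the scaffold of the same ligases, changed by -0.35, -0.81, -0.67 and -0.60, all called (the 12 h call was lost with median scaling). FBXO4, an F-box protein described for cyclin D1, had log2 fold changes of -0.36, -1.26, -1.37 and -0.53, called from 24 h on. CRYAB, a chaperone described as the partner of FBXO4, was detected on no array at 12 h or 0 h and on all arrays from 24 h on. It was at least 2.74-fold higher than 0 h at 48 h and 1.24-fold at 72 h. CRYAB passed the filter only through arrays of 24, 48 and 72 h, so it adds no independent support for a rise there or to the count of 3.

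Of the transcription regulators of these cyclins and inhibitors, 8 of 15 rose on the mean of the 4 times and 1 fell, where 24.5% of all genes rose; with median scaling 3 rose and 1 fell, where 13.4% of all genes rose. SMAD3, which carries TGF-beta signals, changed by 0.69, 2.15, 1.87 and 1.5. FOXO3, a forkhead factor known to act on CDKN1B, changed by 0.61, 0.68, 1.24 and 1.14 (with median scaling the 12 h and 24 h calls were lost, at 0.59 and 0.51). JUN changed by 0.54, 0.41, 0.82 and 0.70, and with median scaling it was called at none of the 4 times. SP1, which binds GC boxes, had log2 fold changes of -0.56, -0.47, -0.66 and -0.27, called at 12, 24 and 48 h (with median scaling the 12 h value was -0.52 and not called).

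Of 7 tested genes in the list of the DREAM complex, which holds FOXM1 too, 1 rose and 2 fell on the mean, beside the same 24.5% and 27.3% of all genes. FOXM1, which drives genes of G2 and mitosis, had log2 fold changes of -0.35, -0.63, -1.31 and -0.94, called from 24 h on. LIN9 had 0.25, 0.44, 0.27 and 0.07, called at 24 h, and was 0.26 higher on the mean of the 4 times (adjusted p = 0.017, limma), against 0.05 (adjusted p = 0.80) with median scaling.

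Of the 17 tested E2F target genes of S phase entry, some were higher at 12 h and more were lower at 48 h. At 12 h, 5 of the 17 were higher, where 16.4% of all genes were. The other 12 were not called at 12 h. At 24 h, 3 stood higher and 5 lower, where 20.4% and 21.3% of all genes were. At 48 h, 10 of the 17 were lower, where 22.8% of all genes were, and at 72 h 7 were lower, where 21.4% of all genes were. MCM5, CDC45 and GINS2 were called both higher at 12 h and lower at 48 h. With median scaling 3 were higher at 12 h (11.2% of all genes), 11 lower at 48 h (34.2%) and 12 lower at 72 h (33.9%). RRM2, a subunit of ribonucleotide reductase, had log2 fold changes of 1.2, 0.94, 0.27 and 0.18, called at 12 h and 24 h. MCM5, a subunit of the replicative helicase, changed by 0.45, -0.77, -1.05 and -0.82, all called (the 12 h call was lost with median scaling, at 0.46 and adjusted p = 0.14). ORC1, of the origin recognition complex, had log2 fold changes of -0.06, -0.37, -1.16 and -0.93, called from 24 h on (with median scaling the 24 h call was lost, at -0.49). Directly between 72 h and 12 h, 8 of the 17 were lower, where 15.9% of all genes were lower.

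**Figure D5:**
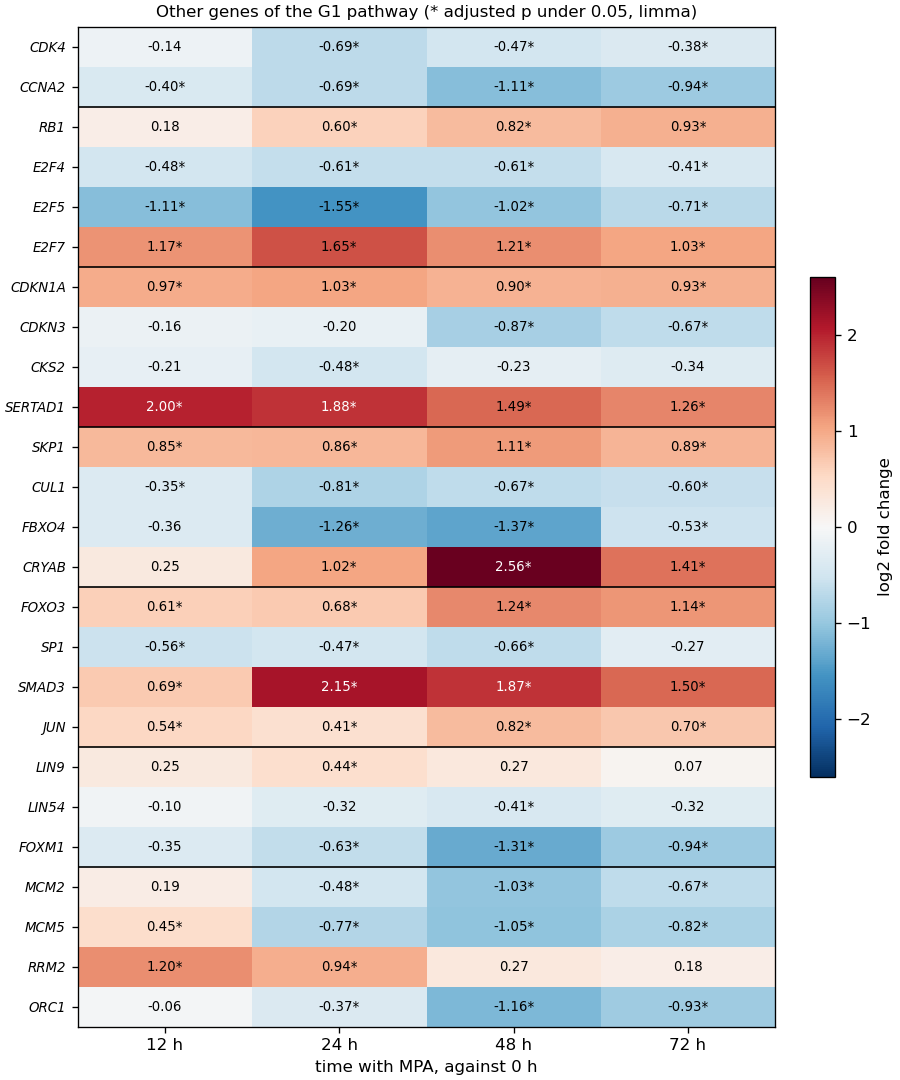
Log2 fold change against 0 h at 12, 24, 48 and 72 h (columns, coloured by the change) of the named genes of the 7 pathway lists (one gene per line, lists parted by black lines), with a star where the limma adjusted p was under 0.05. SERTAD1 is at 2.00 at 12 h, MCM5 is at 0.45 at 12 h and -1.05 at 48 h, and CRYAB is drawn at its fitted values although 0 h and 12 h lay below detection.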

How the data were processed

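Gene expression was measured in 12 samples of AGS cells on Illumina HumanHT-12 arrays, 4 at 0 h and 2 each at 12, 24, 48 and 72 h, grouped by the labelled hours of MPA. The authors deposited bead intensity values per probe, summarised by the scanner and not normalized, with a detection score (a fraction from 0 to 1, where 1 minus the score is the detection p-value). They also deposited log2 values, for which the submitters' processing notes name the R package lumi; no source read here gives their transformation or normalization, and they served as an alternative. No column of the authors' own comparisons was used.

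Of 48803 probes, 28098 were paired with 1 gene, 13 with several and 20692 with none in GEO's platform annotation (of another array version than the study's methods name, matched by probe ID). Of the 28098, 28059 took the current symbol of their gene ID, whether changed or not, and 39 without a matching ID kept the annotation's symbol. In limma 3.58.1 (R 4.3.3), background was corrected by normexp with negative controls inferred from the detection p (offset 16), then log2 and quantile normalization were applied. A probe was kept where 2 or more arrays detected it at p under 0.01 (13772 probes), and the brightest probe stood for each gene (10469 genes). One linear model with empirical Bayes covered the 5 groups, with Benjamini-Hochberg adjustment over all genes at 0.05; contrasts were each time and the mean of the 4 times against 0 h, and pairs of times. The script was checked on simulated data. The number of arrays limits the precision. A probe below detection in a group has only a bound there, written as at least N-fold.

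Alternatives were median scaling, the deposited log2 values, offset 50, raw background, each probe by itself or the average of the probes of a gene, no filter or one that asked for detection everywhere (12 arrays), weights for arrays, a trend in the variance, a block for the replicate number, fits of only the groups compared, and leaving out each array. Slide and scan were not among the columns used. Named pathway genes are from the up to 4 of each list with the largest absolute change among those called on the mean of the 4 times, and the genes most like CCND1, CDKN2D and CCNE1, whose means ranged most, are the 3 with the highest Pearson r. The 10 genes and the lists were chosen with earlier results of these data known. CCNE2, CCND2 and CDKN1C were not tested, and CDKN2C was not analysed here. Promoter sequences are from RefSeq (GRCh38.p14).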

Additional observations from a re-analysis of the deposited data

Results flagged for a closer look

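The second, dim CCNE1 probe had 1 array at 0 h apart from the other 3: replicate 4 stood at 5.38, against 4.98 to 5.02, a gap of 0.891 of the range of the 4 arrays, above the critical value of Dixon's test. It was the 1 of 15 probes so marked, and chance marks about 1 in 20 groups. None of the 4 arrays detected this probe.

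Effects differed between times in 5 direct tests in limma. CCND1 exceeded its 12 h level by 0.85 at 72 h. CDKN2D exceeded its own by 0.91 (24 h) and 0.70 (72 h). CCNE1 was lower than at 12 h at 24 h (log2 fold change -0.75) and at 72 h (log2 fold change -0.62). Each comparison rests on 2 arrays a time. CDKN1C, which was not tested, was detected on the first 12 h array at an intensity of 142.4, against 106.6 to 122.2 at 0 h, where it was not detected.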

How the results depend on the processing

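Over 1290 values of the 6 genes under the alternatives, 1190 kept their direction and their side of the threshold, 51 lost and 23 gained a call, and 26 changed sign, 1 of them called before (CCND3 on the mean of the 4 times). The calls of CCNE1 at 12 h and at 72 h against 12 h, of CCND1 at 48 h, 72 h and on the mean, and of CDKN2D at 24, 48, 72 h and on the mean were made under each alternative run.

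Median scaling changed most; the cause was not tested beyond the shift of all genes given above, which was also -0.14 at 24 h and -0.19 on the mean of the 4 times. Under it CCNE1 was at -0.01 at 24 h and -0.12 at 72 h; CCND3 at -0.22 at 48 h, -0.24 at 72 h, -0.06 on the mean, -0.11 at 24 h against 12 h, -0.01 at 72 h against 48 h and -0.40 at 72 h against 12 h; CDKN1B at -0.33 at 72 h, -0.06 at 24 h against 12 h, -0.15 at 48 h against 24 h and -0.01 at 72 h against 12 h; and CDKN2B at -0.36 at 72 h against 12 h. With the authors' values CCND3 was at -0.02 at 72 h against 12 h. Of the 6 genes, median scaling called 1 higher and 0 lower at 12 h, where 11.2% and 9.82% of all genes were called. At 24 h it called 1 higher and 0 lower (11.8% and 19.5%), at 48 h 2 and 2 (9% and 34.2%), and at 72 h 2 and 0 (8.05% and 33.9%). On the mean it called 2 higher and 1 lower (13.4% and 34.8%). At 24 h against 12 h it called 0 higher and 1 lower (1.8% and 1.33%), and at 72 h against 12 h 0 and 1 (4.39% and 25.9%). Of all genes, it called 1028 lower at 12 h (1877 with quantile normalization), 1236 higher at 24 h (2132), 942 higher at 48 h (2172), 843 higher (2196) with 3547 lower (2237) at 72 h and 1401 higher on the mean (2570). Between times it called 188 higher and 139 lower at 24 h against 12 h (481 and 242), 77 higher at 48 h against 24 h (473), 17 higher and 54 lower at 72 h against 48 h (84 and 128), and 460 higher and 2713 lower at 72 h against 12 h (1798 and 1667).

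CCND1 was the 1 gene called higher at 48 h against 24 h with the authors' values, no background correction, offset 50, detection on all 12 arrays, array weights or a variance trend, and CCNE1 the 1 called higher at 72 h against 48 h with the authors' values or a variance trend. With no filter, each probe alone, array weights or only the groups compared, 0 of the 6 were lower at 12 h. With the mean of the probes 1 was higher at 12 h and 0 lower at 24 h against 12 h. Detection on all 12 arrays gave 74 genes lower at 72 h against 48 h. With only the groups compared, 317 genes were higher and 126 lower at 24 h against 12 h, 261 and 399 at 48 h against 24 h, and 14 and 28 at 72 h against 48 h.

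Replicate numbers did not pair the arrays: same-numbered arrays had correlations of -0.19 to 0.27 in 20 pairs, 3 of them over 0.1. With the replicate number as a block, 1 of the 6 was higher and 0 lower at 12 h, CDKN2B was at 0.37 at 12 h (adjusted p = 0.078, limma) and 0.38 at 72 h (adjusted p = 0.066), and CCND3 at 0.17 on the mean (adjusted p = 0.20).

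Without single arrays, genes called ranged at 12 h from 1078 to 1683 higher and 1143 to 1847 lower, and at 24 h from 1429 to 2228 lower. The ranges were 201 to 484 higher and 56 to 244 lower at 24 h against 12 h, 105 to 494 and 177 to 690 at 48 h against 24 h, 18 to 86 and 42 to 131 at 72 h against 48 h, and 1108 to 1819 and 948 to 1689 at 72 h against 12 h. The low ends came without the second 12 h array (12 h against 0 h, lower at 24 h against 12 h, 72 h against 12 h), the second 24 h array (higher at 24 h against 12 h, 48 h against 24 h), the first 24 h array (24 h against 0 h), or the first 72 h and 48 h arrays (higher and lower at 72 h against 48 h). Of the 6 genes, 1 to 2 were higher and 0 to 1 lower at 12 h, 0 to 1 higher and 0 to 1 lower at 24 h against 12 h, 0 to 1 higher at 48 h against 24 h and 1 to 2 higher at 72 h against 12 h. CCND3 ranged from -0.06 to 0.11 at 24 h against 12 h, -0.12 to 0.06 at 48 h against 24 h, -0.01 to 0.04 at 72 h against 48 h and -0.04 to 0.06 at 72 h against 12 h; CDKN1B from -0.05 to 0.12 at 72 h and -0.06 to 0.17 at 48 h against 24 h; and CDKN2B from -0.07 to 0.08 at 72 h against 12 h. For the mean of the 4 times, a fit of only the groups compared is the same fit. Slide as a block was not run, since the columns used name no slide. Probes of CCND2, CCNE2 and CDKN1C lay near background, so that changes in them could not be measured reliably.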
